A study of Mus musculus with 15 samples.

Results

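Foxa1, Foxa2, Foxa3, Foxf1a and Foxf2 are 5 of the mouse forkhead genes, and their RNA was followed here through the aorta-gonad-mesonephros (AGM) region, where the first hematopoietic stem cells appear. The members were taken by gene symbol, 5 of 28876 genes listed, and all 5 were among the 18553 genes tested. They were chosen by their RPM in the 12 aortic libraries: Foxa1, Foxf1a and Foxf2 had been seen to be lower in the ventral tissue and higher in the dorsal tissue at the later stage, and Foxa2 and Foxa3 complete the Foxa genes. Their stage differences are therefore described without a test, as are the dorsal-ventral differences of Foxa1, Foxf1a and Foxf2.

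The study profiled tissue around the dorsal aorta of C57BL/6 embryos by RNA-seq, 3 libraries for each of 5 groups. At E9.5 the region was cut into a dorsal (E9 AoD) and a ventral part (E9 AoV), and at E10.5 into a dorsal part (E10 AoD), a ventral part (E10 AoV) and the urogenital ridges (E10 UGR). No mutant, transgene or treatment was involved, and each library held tissue pooled from 15 to 34 embryos. The question asked of the members is how their levels differ by stage and by position.

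Values are RPM as deposited by the authors, reads of a gene scaled to a common library total. A depth of 33.75 to 48.63 M counted reads per library was inferred from the smallest steps between values, so that 3 reads corresponded to 0.0617 to 0.0889 RPM. The labelled tissues were compared with marker genes. All 11 urogenital ridge markers were lower in E10 AoD than in E10 UGR. In E10 AoV 7 of 11 were lower than in E10 UGR and 1, Lhx9, was higher. All 12 neural tube markers were lower in E9 AoV than in E9 AoD, and 19 of 21 visceral mesoderm markers were higher in E9 AoV. The endothelial markers summed to 325 RPM or more in every library, and none of those 9 genes was at 0 in any group.

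FOXA proteins are pioneer transcription factors, able to bind their sites in closed chromatin, and they are best known from the definitive endoderm and its liver and gut derivatives, with FOXA2 also marking the node, notochord and floor plate. FOXF1 and FOXF2 belong instead to the mesenchyme around the gut, the visceral or splanchnic mesoderm, where they are known targets of hedgehog ligands released by the endoderm. The FOXA family is tied to hedgehog signaling from the other side, since FOXA2 regulates Shh in the midline. Foxf1a is the older symbol of mouse Foxf1.

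All 5 proteins bind DNA through the same kind of domain, and the stretch of coding sequence they share most is shown to make that kinship visible. Among the coding sequences of the annotation closest to the authors' build (GENCODE vM1, NCBIM37), the gapless window of 90 bases with the most identical positions is printed 5′ to 3′, with bases shared by all 5 genes in capitals. It spans coding positions 504 to 593 in Foxa1, 489 to 578 in Foxa2, 351 to 440 in Foxa3, 138 to 227 in Foxf1a and 294 to 383 in Foxf2.
Foxa1: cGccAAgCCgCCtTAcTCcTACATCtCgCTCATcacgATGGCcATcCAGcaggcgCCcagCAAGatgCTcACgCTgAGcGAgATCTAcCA
Foxa2: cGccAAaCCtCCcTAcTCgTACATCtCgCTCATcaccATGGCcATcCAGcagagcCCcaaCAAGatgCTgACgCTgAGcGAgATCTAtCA
Foxa3: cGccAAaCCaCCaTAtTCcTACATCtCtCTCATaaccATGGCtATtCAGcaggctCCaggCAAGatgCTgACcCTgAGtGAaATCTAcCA
Foxf1a: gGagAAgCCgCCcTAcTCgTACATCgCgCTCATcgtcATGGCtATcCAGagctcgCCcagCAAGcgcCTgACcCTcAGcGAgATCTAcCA
Foxf2: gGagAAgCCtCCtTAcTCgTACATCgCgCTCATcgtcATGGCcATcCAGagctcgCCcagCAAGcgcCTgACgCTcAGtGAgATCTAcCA

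Of the 90 bases, 56 (62.2%) were identical in all 5 genes. Within this window Foxf1a and Foxf2 were 94.4% identical and Foxa1 and Foxa2 were 87.8% identical, and over the whole coding sequence these pairs shared 65.7% and 66.9% of aligned bases. The longest exact run common to Foxf1a and Foxf2 was 41 bases and that common to Foxa1 and Foxa2 was 38 bases. Because reads were 50 bases long, a read lying wholly within a shared run could not occur, and of the 50-base windows of the members' transcripts (1173 in Foxf1a to 3139 in Foxa1) 0 were found in a protein-coding transcript of another gene. No exact 50-base read of a member is thus shared with another member. Only exact matches were counted, so reads placed with mismatches, as between the similar stretches of Foxf1a and Foxf2, were not covered. The check covered protein-coding GENCODE vM1 transcripts only, and AC124170.2, a transcript outside that annotation whose values closely followed those of Foxf1a, was not covered.

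Foxa1 (ENSMUSG00000035451, chr12:58641618-58647108, minus strand) encodes the FOXA factor shared by endoderm, lung and many later epithelia. Its RPM was 5.11, 4.78 and 3.96 in the E9 AoD libraries and 44.3, 62.9 and 47.4 in E9 AoV. At E10.5 it was 12.7, 11.4 and 9.09 in AoD and 0.467, 0.767 and 0.629 in AoV. Ventral tissue was thus the high one at E9.5 and the low one at E10.5, with no overlap between any of these groups. The means ± SD (n = 3) were 51.5 ± 9.97 RPM for ventral tissue at E9.5 and 0.621 ± 0.15 RPM at E10.5, the latter resting on 18, 30 and 27 reads. On the log2(RPM + 0.1) scale used for all differences, the stage difference of Foxa1 (E10.5 minus E9.5) was -6.17 (SE 0.199) in AoV and 1.24 (SE 0.199) in AoD. From the reads alone, E9 AoV exceeded E10 AoV 82.8-fold (95% exact counting interval 66 to 105). This interval, like every one below, covers counting error only. In bulk tissue, fewer cells of a type and less RNA per cell cannot be told apart, and this holds for every difference given here.

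Foxa2 (ENSMUSG00000037025, chr2:147868613-147872705, minus strand) is the FOXA gene of the node, notochord, floor plate and endoderm. In E9 AoD it stood at 11.1, 11.5 and 10.6 RPM, and in E9 AoV at 11.4, 11.6 and 9.39 RPM. At E10.5 the values were 6.13, 2.86 and 2.87 RPM in AoD, and 0.156, 0.153 and 0.186 RPM (6, 6 and 8 reads) in AoV. Foxa2 was therefore level between dorsal and ventral tissue at E9.5, with overlapping libraries, and far apart at E10.5, with AoV the lower. The E9.5 difference was -0.04 (SE 0.226, 95% interval -0.52 to 0.44, limma adjusted p = 0.9), and differences within that interval were not resolved. At E10.5 the difference of AoV from AoD was -3.84 (SE 0.226, limma adjusted p = 6.24e-09; -2.02 with a pseudocount of 1 RPM, still called), and the read ratio of AoV to AoD was 0.0424 (0.0257 to 0.0662). Foxa2 was lower at the later stage in both tissues, with differences of -5.36 in AoV and -1.56 in AoD (SE 0.226 each). Replicate 1 of E10 AoD was the high library of its group, and without it the dorsal stage difference was -1.91. The same library was the highest of the 3 for Shh (124 RPM against 113 and 114), Nkx6-1 (8.92 against 5.42 and 5.02) and Sox2 (32.4 against 19 and 18.6), genes looked up after their values were seen. Their part in the Foxa2 value was not tested.

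Foxa3 (ENSMUSG00000040891, chr7:19598631-19608887, minus strand) is the FOXA gene most tied to liver and gut. It was measured at 3.6, 4.89 and 3.4 RPM in E9 AoV (158, 211 and 143 reads). No other library passed 0.179 RPM. E9 AoD held 0.0492, 0.134 and 0.0428 RPM (2, 5 and 2 reads), E10 AoV 0.0519, 0.179 and 0.0699 RPM (2, 7 and 3 reads), and E10 AoD 0, 0.0251 and 0.0237 RPM (0, 1 and 1 reads). The 0 in replicate 1 of E10 AoD allows up to 3 reads, or 0.0768 RPM. Foxa3 was thus detected well in E9 AoV and sat near the counting floor everywhere else. It passed the filter of 0.5 RPM through the E9 AoV libraries alone, so its E9.5 position difference of 4.55 (SE 0.264) and its read ratio of 55 (28.7 to 121) are given without a test. At E10.5 the same difference was 0.74 (SE 0.264, limma adjusted p = 0.0409), short of the log2 change of 1 required for a call, and rested on 12 reads against 2. The ventral stage difference was -4.38 (SE 0.264), and the dorsal one -0.56 (SE 0.264) between groups of 9 and 2 reads.

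Foxf1a (ENSMUSG00000042812, chr8:123608286-123610851, plus strand) encodes the FOXF factor needed in lateral plate and visceral mesoderm and in the vessels that form there. The libraries of E9 AoD gave 5.3, 5.4 and 2.82 RPM and those of E9 AoV gave 61.7, 76.4 and 64 RPM. By E10.5 AoD was at 19.4, 29.1 and 16.6 RPM and AoV at 10.6, 11.6 and 11.5 RPM. Ventral tissue was high at E9.5 and lay just below dorsal tissue at E10.5, and the groups did not overlap at either stage. Means ± SD (n = 3) went from 67.4 ± 7.91 to 11.2 ± 0.551 RPM ventrally and from 4.51 ± 1.46 to 21.7 ± 6.56 RPM dorsally. The stage differences were -2.57 in AoV and 2.26 in AoD (SE 0.246 each), and the dorsal-ventral difference moved from 3.92 at E9.5 to -0.90 at E10.5. Replicate 3 of E9 AoD, the low library for Foxf1a, was also the lowest of its group for Foxa1 (3.96 RPM), Foxf2 (6.05 RPM), Gata4 (3.44 RPM against 11.2 and 14) and Acta2 (26.6 RPM against 48.1 and 49.4), and the part of this shared low in the values was not tested.

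Foxf2 (ENSMUSG00000038402, chr13:31717685-31723272, plus strand), the second gene of the Foxf pair, acts in gut and craniofacial mesenchyme and in pericytes of the brain. E9 AoD libraries held 8.54, 8.44 and 6.05 RPM, and E9 AoV libraries 43.4, 57.2 and 52.9 RPM. A day later AoD was at 84.4, 103 and 78.6 RPM, the highest of the 5 groups for this gene, while AoV was at 4.23, 3.93 and 3.98 RPM. The order of dorsal and ventral tissue was thus inverted between the stages with no overlap. Its stage difference was -3.62 in AoV and 3.52 in AoD (SE 0.177 each), which on the fitted scale is 12.3-fold lower ventrally and 11.5-fold higher dorsally. The position difference went from 2.73 at E9.5 to -4.41 at E10.5 (SE 0.177 each).

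**Figure D1:**
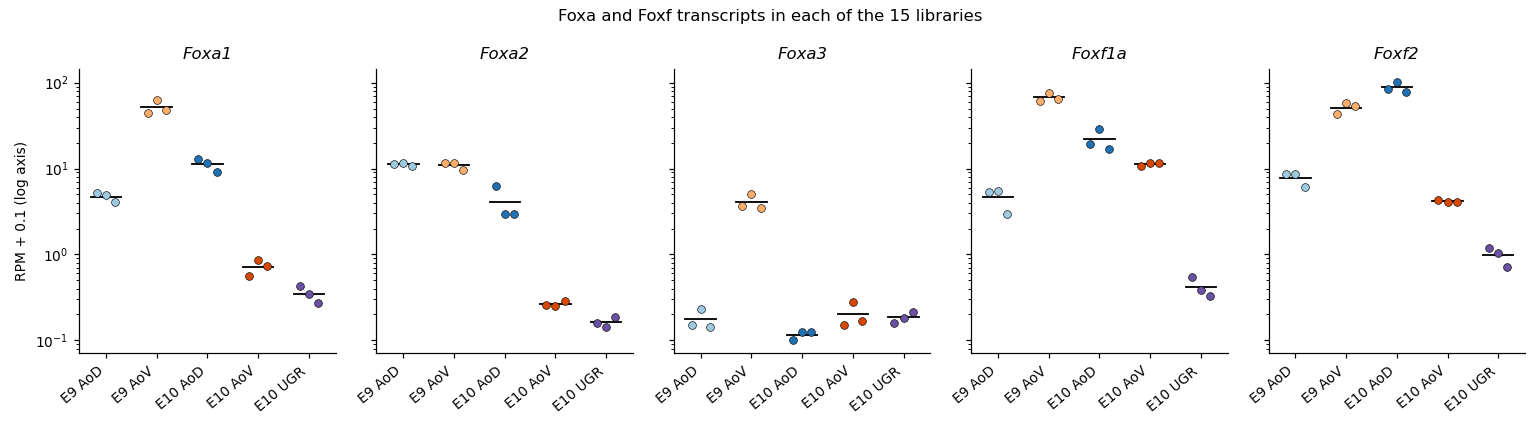
Level of each member (y axis, RPM + 0.1 on a log scale) in the 15 libraries by group (x axis), each point 1 library and each line the mean of 3. Foxa1, Foxf1a and Foxf2 are higher ventrally than dorsally at E9.5 and higher dorsally than ventrally at E10.5, Foxa3 stands above 3 RPM in E9 AoV alone, and Foxa2 is level at E9.5.

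Read as counts, all 5 members were past a log2 difference of 1 and lower in E10 AoV than in E9 AoV, against 4.99% of all tested genes called lower there (6.04% higher, 11% called in either direction). In AoD 3 of 5 were higher and 1 was lower with stage, against 8.6% and 4% of all tested genes (12.6% in all). These 2 contrasts chose the members, so nothing is read from the shares. Between E9 AoV and E9 AoD 4 of 5 were higher ventrally (8.32% of all tested genes higher, 11.8% called), and between E10 AoV and E10 AoD 3 of 5 were lower ventrally (4.29% lower, 5.81% higher, 10.1% called). Foxa3 is among the 4 through the libraries that let it pass the filter, so nothing is read from that count. The libraries of the groups compared did not overlap for 5 of 5 members in the ventral stage comparison (55% of all tested genes), 5 of 5 in the dorsal one (60.7%), 4 of 5 at E9.5 (51.3%) and 5 of 5 at E10.5 (49.5%). The interaction of stage and position, the ventral stage difference minus the dorsal one, was below -1 for all 5, against 6.89% of tested genes called negative (4.12% positive, 11% called). It was -7.40 for Foxa1, -7.14 for Foxf2, -4.83 for Foxf1a, -3.81 for Foxa3 and -3.80 for Foxa2, and in Foxa2 and Foxa3 both stage differences had the same sign. The comparisons share libraries with one another, so their values are not independent.

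Compared per kilobase of exon, which allows levels of different genes to be set side by side, Foxf1a led in E9 AoV at 55.1 ± 6.47 RPM per kb (SD, n = 3). It was followed there by Foxf2 at 21.7 ± 2.99, Foxa1 at 16.2 ± 3.13, Foxa2 at 4.56 ± 0.516 and Foxa3 at 1.94 ± 0.397 RPM per kb. Foxf2 and Foxa1 overlapped in that order and the other neighbours did not. In E10 AoD Foxf2 led at 37.5 ± 5.39, ahead of Foxf1a at 17.8 ± 5.37, Foxa1 at 3.47 ± 0.574 and Foxa2 at 1.67 ± 0.795 RPM per kb, without overlap between neighbours. E9 AoD had a different leader, with Foxa2 at 4.67 ± 0.19, above Foxf1a at 3.69 ± 1.2 and Foxf2 at 3.25 ± 0.597, which overlapped each other, and Foxa1 at 1.45 ± 0.186 RPM per kb. In E10 AoV Foxf1a was far ahead at 9.19 ± 0.451, with Foxf2 at 1.71 ± 0.068 and the 3 Foxa genes at 0.195 RPM per kb or less. The annotated Foxf1a model is 1222 bases with 1137 of them coding, so reads from untranslated sequence outside it were not counted and its level per kilobase depends on that short model.

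The balance within each family differed by tissue as well, and a ratio of the same pair of genes can be compared between groups whatever their lengths. The RPM ratio of Foxa1 to Foxa2 was 0.417 ± 0.0434 in E9 AoD and 4.79 ± 0.801 in E9 AoV, since Foxa1 was higher ventrally and Foxa2 was not. It was 3.08 ± 0.96 in E10 AoD and 3.8 ± 1.07 in E10 AoV, values that overlapped. The ratio of Foxf1a to Foxf2 was 0.576 ± 0.0952 in E9 AoD and 1.32 ± 0.107 in E9 AoV. At E10.5 it was 0.241 ± 0.037 in AoD and 2.78 ± 0.241 in AoV, so that the ratio was higher ventrally at both stages without overlap, and further apart at E10.5. Across the 15 libraries, on the log2 scale, Pearson's r was 0.90 for Foxa1 and Foxf2, 0.89 for Foxa1 and Foxa2, 0.87 for Foxf1a and Foxf2, and 0.83 for Foxa1 and Foxf1a. It was lowest for Foxa3 and Foxf2 at 0.35. These correlations describe 5 groups of 3 libraries, and much of each r is carried by differences between groups.

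The urogenital ridges were the group that took no part in choosing the members, and both aortic tissues were tested against them at E10.5. All 5 genes were low there. Foxa1 was at 0.326, 0.247 and 0.169 RPM in E10 UGR, Foxa2 at 0.0593, 0.0411 and 0.0845 RPM, and Foxa3 at 0.0593, 0.0822 and 0.113 RPM. Foxf1a was at 0.444, 0.288 and 0.225 RPM. Foxf2 was at 1.1, 0.946 and 0.62 RPM. The 3 Foxa genes thus stood at 2 to 12 reads per library in the ridges, and Foxf1a at 37 reads over the 3 libraries.

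Dorsal tissue exceeded the ridges for 4 of 5 members, against 4.76% of all tested genes called higher (11.3% called), and the libraries of all 5 did not overlap (50.9% of all tested genes). Foxf2 was higher by 6.51 (SE 0.177, limma adjusted p = 2.8e-12) and Foxf1a by 5.69 (SE 0.246, limma adjusted p = 2.44e-10). Foxa1 was higher by 5.02 (SE 0.199, limma adjusted p = 1.28e-10) and Foxa2 by 4.56 (SE 0.226, limma adjusted p = 8.35e-10), and with a pseudocount of 1 RPM these 2 values were 3.26 and 2.16, still called. Foxa3 was on the other side, at -0.67 (SE 0.264, limma adjusted p = 0.0591), on 2 reads against 10. The read ratios were 68.9 (49.8 to 98) for Foxf1a, 65.9 (31.7 to 165) for Foxa2 and 44.8 (31 to 67.1) for Foxa1.

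Ventral tissue exceeded the ridges for 3 of 5 members, against 3.84% of all tested genes called higher (3.73% lower, 7.57% called), and 4 of 5 did not overlap (48.6%). Foxf1a carried the widest difference, 4.79 (SE 0.246, limma adjusted p = 4.94e-09), followed by Foxf2 at 2.10 (SE 0.177, limma adjusted p = 4.34e-07). Foxa1 was higher by 1.06 (SE 0.199, limma adjusted p = 0.000887), a value close to the threshold: it was 0.91 without replicate 2 of E10 AoV, 0.89 without replicate 3 of E10 UGR and 0.38 with a pseudocount of 1 RPM, and no call was made in these settings. Foxa2 differed by 0.72 (SE 0.226, limma adjusted p = 0.0261), under the size required, and Foxa3 by 0.07 (SE 0.264, 95% interval -0.49 to 0.64, limma adjusted p = 0.87). The 2 ridge comparisons share the E10 UGR libraries, and their aortic libraries were among those used to choose the members.

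The rest of the forkhead family was taken from the table by name. It came to 38 genes, of which 30 passed the filter. In the interaction of stage and position 10 of 30 were called, 7 positive and 3 negative. Of all tested genes 11% were called there, 4.12% positive and 6.89% negative. The median was 0.01, beside 0.015 over all tested genes. Shares of all tested genes given with the members' counts apply to this list and to those below. With stage, 8 rose and 3 fell in AoV, and 7 rose and 2 fell in AoD. Between AoV and AoD, 2 were higher and 9 lower at E9.5, and 3 were higher and 6 lower at E10.5. Against E10 UGR, 3 were higher and 2 lower in E10 AoV, and 7 were higher and 1 lower in E10 AoD. Foxa1, Foxf1a and Foxf2 were chosen by the aortic libraries, and Foxa3 passed the filter through E9 AoV alone. Nothing is therefore read from setting the members beside the counts between AoV and AoD.

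Foxq1, a forkhead gene of epithelia that lies near Foxf2, came nearest to the stage differences of Foxa1, Foxf1a and Foxf2. It was unlike them elsewhere: its E9.5 position difference of 0.69 was not called, and that of E10 AoV from E10 UGR was -1.59. The r of Foxq1 with Foxf2 was 0.45. Its dorsal mean was 1.17 ± 0.297 RPM at E9.5 and 6.75 ± 1.19 RPM at E10.5, and its ventral mean 1.92 ± 0.262 and 0.859 ± 0.116 RPM (SD, n = 3). It fell by 1.07 in AoV and rose by 2.44 in AoD, and its interaction was -3.52 (SE 0.265, limma adjusted p = 2.97e-07). Foxl1, a gut mesenchyme gene that lies near Foxf1a and is listed under a clone name, had an interaction of -1.53 (limma adjusted p = 0.00022). It rose in AoD by 2.03 and differed in AoV by 0.51, short of a call. Foxc2, a sclerotome and vessel gene of the same cluster, went the other way with an interaction of 1.18 (limma adjusted p = 1.16e-05). Its means were 83.2 and 25.9 RPM in dorsal and ventral tissue at E9.5 and 122 and 86.4 RPM at E10.5. Foxc1, which lies in the Foxf2 cluster, had 114 and 39.6 RPM and then 262 and 170 RPM, with an interaction of 0.91, under the size for a call. The remaining genes with the widest interactions were Foxe1 at -2.07, Foxo6 at 1.93, Foxb1 at 1.89 and Foxr1 at 1.72. Foxe1 and Foxr1 had group means of 0.542 RPM or less, and their calls were lost with a pseudocount of 1 RPM.

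**Figure D2:**
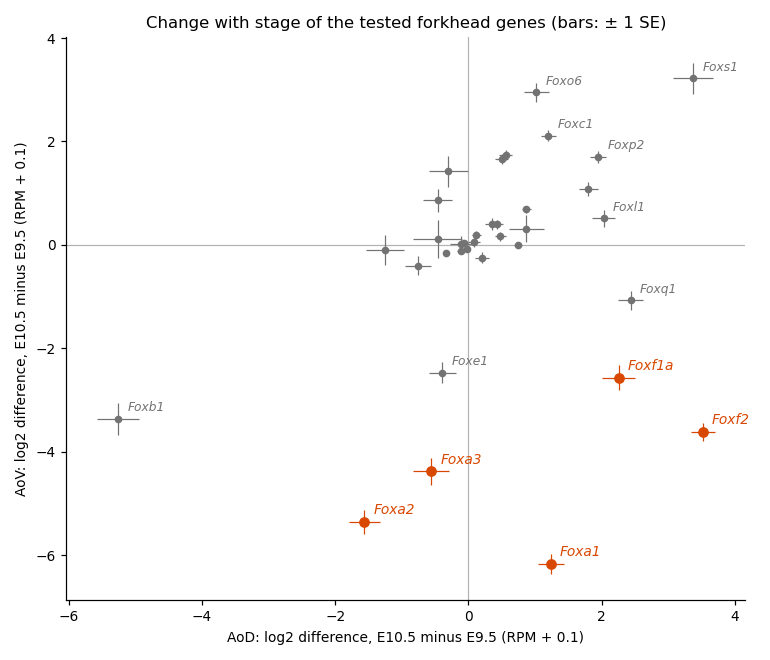
Stage difference in AoD (x axis) against that in AoV (y axis), log2(RPM + 0.1), for the 35 tested forkhead genes, with bars of 1 SE and the 5 members in orange. Foxa1, Foxf1a and Foxf2, whose stage differences were not tested, lie at the lower right, negative in AoV and positive in AoD. Foxq1, which was tested, lies there as well and was called in both.

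The genomic surroundings of each member were then read from the same annotation (GENCODE vM1), in which 95.3% of the table's identifiers were found. Within 100 kb of the members there were 22 tested genes, a distance chosen after values were seen. In the interaction 8 of 22 were called, 7 negative and 1 positive, against 6.89% and 4.12% of all tested genes (11% called). Foxc2, Foxl1 and Foxq1 are among these and also in the forkhead list. With stage 1 rose and 6 fell in AoV, and 6 rose and 1 fell in AoD. By position 6 were higher and 3 lower in AoV at E9.5, and 1 was higher and 6 were lower at E10.5.

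Near Foxa1, Ttc6 begins 18 kb upstream on the opposite strand. Its means were 0.256 RPM dorsally and 1.85 RPM ventrally at E9.5, and 0.82 and 0.0654 RPM at E10.5. It fell by 3.54 in AoV (limma adjusted p = 4.16e-08) and rose by 1.39 in AoD (limma adjusted p = 0.000256), and its r with Foxa1 over 15 libraries was 0.97. Ttc6 thus had the order of groups seen in Foxa1 at a far lower level. Mipol1, 43.4 kb on the other side, had stage differences of -0.12 and -0.21 and was not called in either. Near Foxa2, the noncoding 9030622O22Rik lies 2.67 kb downstream on the same strand and had an interaction of -2.74 (limma adjusted p = 6.71e-05), falling by 3.82 in AoV and by 1.08 in AoD. Around Foxa3, 10 neighbours were tested, their stage differences lay between -0.64 and 0.79 and their interactions between -0.11 and 0.35, all under the size for a call.

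The lincRNA gene 1110050K14Rik begins 1.35 kb upstream of Foxf1a and runs on the opposite strand. Its means ± SD were 1.82 ± 1.28 RPM dorsally and 39.7 ± 14.6 RPM ventrally at E9.5, and 4.08 ± 1.06 and 2.74 ± 0.277 RPM at E10.5. It fell by 3.76 in AoV (limma adjusted p = 2.23e-06) and rose by 1.34 in AoD (limma adjusted p = 0.00947), and its r with Foxf1a was 0.97. Mthfsd, 8.06 kb from Foxf1a on the far side, had stage differences of 0.06 and 0.01. Near Foxf2, 1700018A04Rik lies 43.3 kb upstream on the opposite strand. It fell by 2.84 in AoV and rose by 3.15 in AoD, with an interaction of -5.99 (limma adjusted p = 8.4e-08). Gm11377 at 52.3 kb had an interaction of -4.04, given without a test because it passed the filter through the E10 AoD libraries alone. The counting was not stated to use strand, so reads from overlapping antisense transcripts cannot be told apart. One further transcript, listed as AC124170.2, had an r of 0.999 with Foxf1a and means of 5.72, 90.7, 27.4, 14.1 and 0.502 RPM from E9 AoD to E10 UGR. It was not found in the annotation used, and whether it overlaps Foxf1a was not tested. If it does, reads may have been divided between them, and the Foxf1a levels in RPM and per kilobase depend on that.

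**Figure D3:**
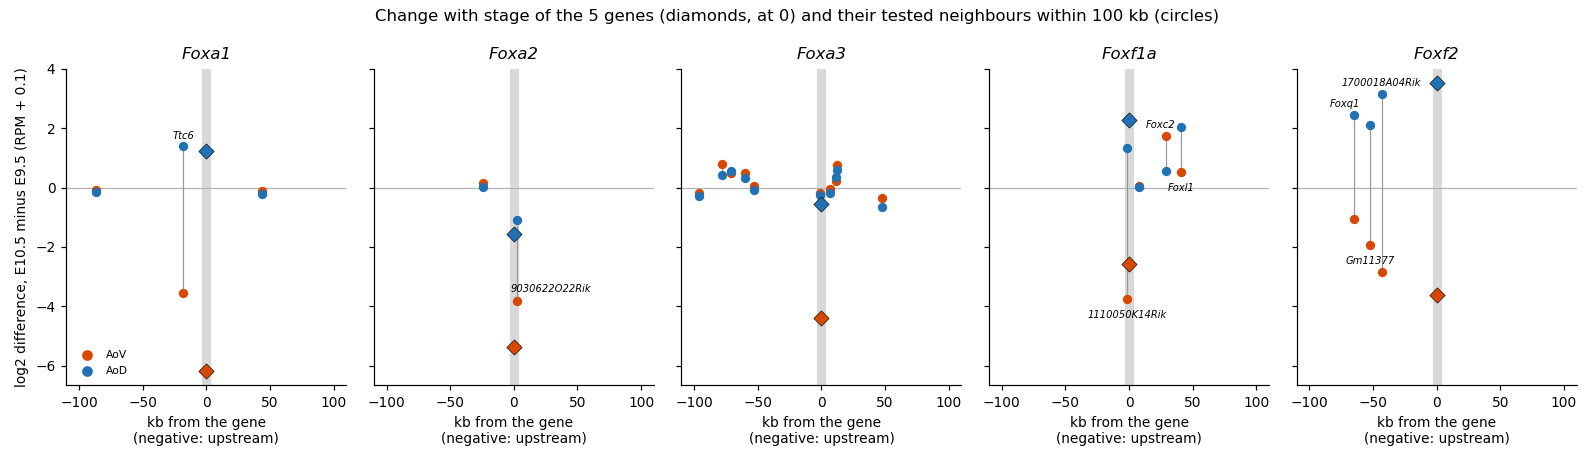
Stage difference (y axis, log2(RPM + 0.1)) of each member (diamonds) and of tested genes within 100 kb (circles) against distance from the member in kb (x axis), in AoV (orange) and AoD (blue). Ttc6, 1110050K14Rik and 1700018A04Rik split in the same directions as the member beside them, and the neighbours of Foxa3 lie between -0.64 and 0.79.

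The start of Foxa1 is shown because, of the promoter windows found for Foxa1, Foxa2, Foxa3 and Foxf2, it was the one with a match to the forkhead core. No window was found for Foxf1a, which was not searched. The sequence is that of RefSeq, placed by exact match on NCBIM37 at chr12:58647109-58647348 on the minus strand and printed 5′ to 3′, with the match in capitals.
Foxa1: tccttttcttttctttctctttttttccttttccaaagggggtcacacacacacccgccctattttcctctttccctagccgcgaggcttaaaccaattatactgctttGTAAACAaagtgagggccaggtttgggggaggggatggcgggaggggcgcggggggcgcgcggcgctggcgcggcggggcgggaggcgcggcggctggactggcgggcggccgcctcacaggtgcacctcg

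The match GTAAACA, the reverse complement of TGTTTAC, lies 141 to 135 bases before the RefSeq start, counted in the full window of 250 bases. The printed sequence of 240 bases stops short of that start, since the bases nearest to it lie inside the annotated gene. One or the other of these letters occurred on 3.17% of 32851 promoter windows covering the 250 bases before a start. The windows of Foxa2, Foxa3 and Foxf2 held neither, and none of these windows or that of Foxa1 held the GLI motif TGGGTGGTC or its reverse complement GACCACCCA, found in 0.225% of all windows. A match is a string of letters and no measure of binding.

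Hedgehog signaling was examined through a list of 16 pathway genes, of which 15 were listed and tested. In the interaction 9 of 15 were called, 6 negative and 3 positive, against 6.89% and 4.12% of all tested genes (11% called). Shh, the ligand of notochord, floor plate and endoderm, was at 37.5, 43.8 and 34.4 RPM dorsally and 36.1, 51.8 and 38.3 RPM ventrally at E9.5. At E10.5 it was at 124, 113 and 114 RPM in AoD and 1.67, 1.47 and 1.95 RPM in AoV. Shh was therefore level at E9.5, as Foxa2 was (difference 0.11, 95% interval -0.19 to 0.42, limma adjusted p = 0.545), and separated without overlap at E10.5. It fell by 4.54 in AoV (limma adjusted p = 3.87e-11) and rose by 1.60 in AoD (limma adjusted p = 2.73e-07), where the stage difference of Foxa2 was -1.56. Ihh, an endodermal ligand, was at 7.43, 9.51 and 7.23 RPM in E9 AoV and at 0.358 RPM or less in every other library, the pattern of Foxa3. Like Foxa3, Ihh passed the filter of 0.5 RPM through the E9 AoV libraries alone, so its differences are given without a test. It was 4.51 higher in E9 AoV than in E9 AoD and fell by 4.43 with stage in AoV. Dhh, the third ligand, rose in both tissues, from 1.82 to 3.99 RPM ventrally and from 1.07 to 4.27 RPM dorsally.

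Among receptors and targets, Ptch1, the hedgehog receptor that is itself a target, was at 281, 373 and 316 RPM in ventral tissue at E9.5 and at 94.8, 85.9 and 83.3 RPM there at E10.5. It fell by 1.87 there (limma adjusted p = 7.07e-10) and differed by 0.51 in AoD, under the size for a call. Gli1, a transcriptional effector and target, had means of 81.5, 92.5, 122 and 47.8 RPM (E9.5 dorsal and ventral, then E10.5) and an interaction of -1.52 (limma adjusted p = 2.19e-06). The interaction was -4.09 for Hhip, which binds the ligands. The coreceptors were the positive ones, Gas1 at 1.93, Boc at 1.26 and Cdon at 1.13. Over the list, 2 genes rose and 4 fell in AoV with stage, 3 rose and 1 fell in AoD, 1 was higher and 1 lower in AoV at E9.5, and 1 was higher and 5 were lower in AoV at E10.5. Dhh was the 1 gene called between E10 AoV and E10 UGR, and 6 were higher and 1 lower in E10 AoD than in E10 UGR.

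**Figure D4:**
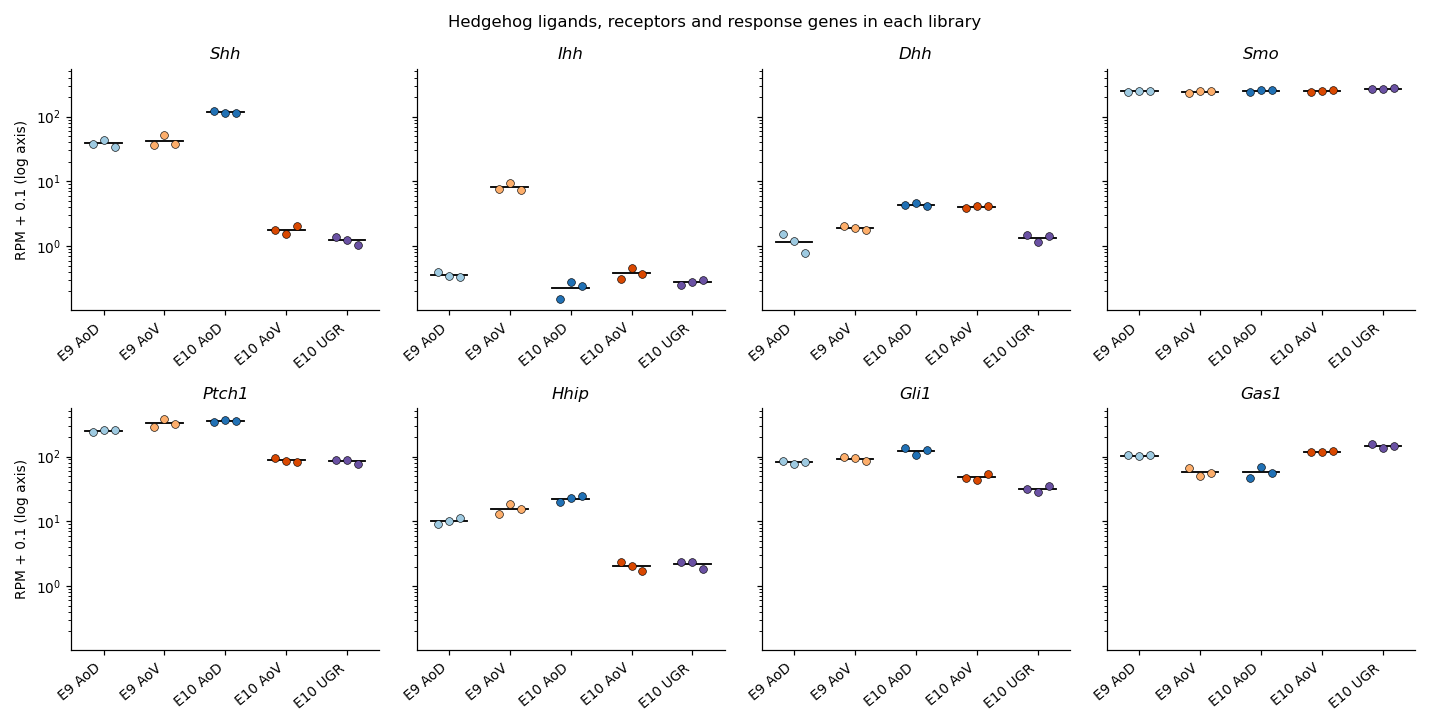
Level (y axis, RPM + 0.1 on a log scale) of 8 hedgehog pathway genes in the 15 libraries by group (x axis), each point 1 library. Shh separates E10 AoD from E10 AoV, Ihh is high in E9 AoV alone, and Smo stays between 242 and 270 RPM in the group means.

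Markers of the tissues in which the members are known to act were summed beside them. Most gut endoderm and liver genes fell with stage in AoV, as the Foxa genes did. By position, most visceral mesoderm genes had the direction of Foxf1a and Foxf2 at E9.5 and the direction opposite to both at E10.5. The part of any of these tissues in the members' values was not tested. The gut endoderm list of 18 genes summed to 845 to 945 RPM in ventral tissue at E9.5 and to 186 to 217 RPM at E10.5, and 17 of 18 fell with stage in AoV. Krt8, a simple epithelial keratin, went from 317 ± 7.37 to 64.2 ± 6.84 RPM, and Hnf4a from 18.3 ± 4.2 to 0.464 ± 0.0485 RPM. Pdx1, Spink3 and Tff3 had interactions of -4.49, -4.36 and -3.24. Tff3 and Nkx2-1 were at 0 in all E10 AoV libraries. In AoD 8 of 18 fell with stage, where Foxa1 was higher. At E10.5 8 of 18 were higher and 0 lower in AoV than in AoD, the direction opposite to that of Foxa1 and Foxa2. In E10 UGR, where the Foxa genes were low, this list summed to 376 to 384 RPM. A further list of liver genes and textbook FOXA targets (20 listed, 17 tested) summed ventrally to 625 to 994 RPM at E9.5 and 18.5 to 20 RPM at E10.5, with 16 of 17 falling. Afp, the fetal liver serum protein, fell from 415 ± 82.1 to 0.755 ± 0.256 RPM, and Apoa1 had the widest interaction of the list at -6.08. All 17 were called in the interaction, 16 negative and 1 positive, with a median of -4.38. Genes that passed the filter of 0.5 RPM through the E9 AoV libraries alone were not set apart in this list or the gut endoderm one. For such genes that filter fixes a ventral fall in advance, so the counts and interactions of both lists are description only.

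The notochord and floor plate list (12 genes) summed to 402 to 428 RPM dorsally and 144 to 148 RPM ventrally at E9.5, and to 473 to 557 RPM in E10 AoD and 51.4 to 58 RPM in E10 AoV, where Noto was at 0. In AoD 2 rose with stage, Shh and T, and 3 fell. T, the notochord gene brachyury, went from 15.4 ± 1.25 to 33.9 ± 4.69 RPM dorsally and from 5.64 ± 1.98 to 1.01 ± 0.141 RPM ventrally, with an interaction of -3.44 (limma adjusted p = 4.62e-07). At E10.5 9 of 12 were lower in AoV, as Foxa2 was, and at E9.5 7 of 12 were lower in AoV while Foxa2 was level.

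For the Foxf genes the visceral mesoderm list (21 genes) is the nearest. It summed to 1057 to 1135 RPM ventrally at E9.5 and 993 to 1062 RPM at E10.5, with 3 genes rising and 8 falling. At E9.5 19 of 21 were higher in AoV than in AoD, the direction of Foxf1a and Foxf2. At E10.5 17 of 21 were higher in AoV than in AoD, the direction opposite to that of Foxf2 (-4.41) and Foxf1a (-0.90). Against E10 UGR, 14 were higher and 2 lower in E10 AoV, and 5 were higher and 11 lower in E10 AoD. Foxf1a and Foxf2 were higher in both of these comparisons. Gata4, a mesoderm factor of the gut wall and coelomic lining, rose ventrally from 95.6 ± 6.44 to 233 ± 16.2 RPM and was at 5.21 ± 1.13 RPM in E10 AoD. Fgf10 had an interaction of 2.65 and Tcf21 one of 2.02, while Nkx3-2 and Tbx3 had -2.27 and -2.07. In AoD the list summed to 147 to 250 RPM at E9.5 and 219 to 250 RPM at E10.5, with 4 rising and 6 falling. Dorsal Foxf1a and Foxf2 were higher at E10.5 while that sum overlapped between the stages.

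Sums of several lists were higher in E10 AoD than in E9 AoD without overlap, as the dorsal Foxf genes were. They included those of sclerotome, smooth muscle, endothelium, blood, the other forkhead genes and, as given, notochord and floor plate. The sclerotome, the somite part that forms the vertebrae, had 12 genes with a sum of 876 to 959 RPM in E9 AoD and 1280 to 1599 in E10 AoD, 6 of them rising and 1 falling. Pax1 rose dorsally from 67.5 ± 2.26 to 299 ± 62 RPM and Pax9 from 18.7 ± 2.01 to 76.2 ± 9.49 RPM. The 9 smooth muscle genes summed to 308 to 442 RPM in E9 AoD and 1118 to 1330 in E10 AoD, with 7 rising. Acta2 rose dorsally from 41.4 ± 12.8 to 344 ± 49.4 RPM and was level between AoD and AoV at E10.5 (difference -0.02, limma adjusted p = 0.96), where Foxf2 differed by -4.41. The endothelial list summed to 325 to 437 RPM in E9 AoD and 658 to 714 RPM in E10 AoD, with 4 of 9 rising, and of the neural tube list 11 of 12 fell dorsally and 7 of 12 ventrally. The urogenital ridge list had 6 of 11 rising in AoV, and 2 rising and 5 falling in AoD. The 6 blood genes had 3 rising in AoV and 4 in AoD, and summed to 2410 to 5522 RPM in E9 AoD and 6074 to 7993 RPM in E10 AoD. The other forkhead genes summed to 1423 to 1549 RPM in E9 AoD and 2006 to 2331 RPM in E10 AoD.

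**Figure D5:**
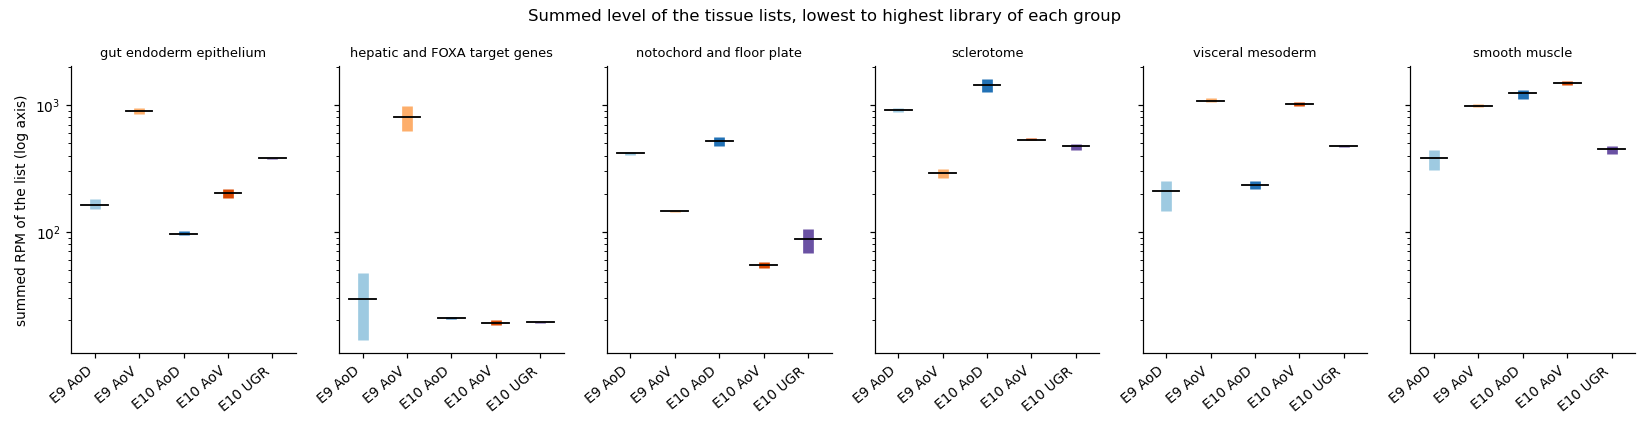
Summed RPM (y axis, log scale) of 6 marker lists in each group (x axis), bars from the lowest to the highest library and lines at the mean. The gut endoderm and hepatic sums are highest in E9 AoV, the visceral mesoderm sum is high in both ventral groups, and the sclerotome sum is highest in E10 AoD.

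Genes whose pattern over the 15 libraries was most like that of each member were found by Pearson's r on log2(RPM + 0.1). For Foxa1 these were Vtn (0.981), Nrp2, St8sia3, Ttc6 and 1110020G09Rik (0.96). Vtn, which encodes vitronectin, had means of 7.76 RPM dorsally and 26.3 RPM ventrally at E9.5, and of 13.2 and 0.908 RPM at E10.5. Foxa2 was matched by Irs4 (0.984), Onecut2, Pcolce2 and Mnx1 (0.962), among others. Foxa3 was matched by Ihh and Bmp10 (0.99 each), Rfx6, Pla2g12b and Ugt2b35 (0.986). Rfx6, a factor of gut and pancreatic endoderm, was at 7.88 ± 0.567 RPM in E9 AoV and at 0.0918 RPM or less in the other group means. The genes nearest to Foxf1a were AC124170.2, Pdlim1 (0.976), Cbfa2t3, F10 and 1110050K14Rik, and those nearest to Foxf2 were Saa2 (0.986), Saa1, Uaca, Lum (0.97) and Adamts15. Saa1 and Saa2 are near-identical copies whose reads may have been divided between them. Lum, a proteoglycan of connective tissue, had means of 19.5, 176, 111 and 14.7 RPM (E9.5 dorsal and ventral, then E10.5 dorsal and ventral).

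Genes opposed in pattern were Tmem178 (-0.966) and AC098733.1 (-0.97) for Foxa1, Rnf182 (-0.987) for Foxa2, Lrrc4 (-0.976) and Rgs16 (-0.96) for Foxa3, and Fam81a (-0.956) and Klhl14 (-0.951) for Foxf1a. For Foxf2 they were Aldh1a2 (-0.96) and Spry1 (-0.955). Aldh1a2, the enzyme that makes retinoic acid in the embryo, had means of 152, 94.7, 43.5, 227 and 406 RPM from E9 AoD to E10 UGR, high where Foxf2 was low.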

How the data were processed

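Total RNA from dissected, pooled tissue was made into TruSeq libraries and sequenced as 50-base single reads. Per the labels and the study's methods, the authors aligned reads with TopHat and Bowtie 0.12.3 to NCBIM37 (mm9) and counted them per Ensembl gene in GeneProf, with reads of ambiguous origin divided in proportion, and deposited the values in RPM. The same table holds 12 columns of the authors' comparisons, made with DESeq, that give log2 fold changes and p-values, and none of them was used. The file holds no raw counts. Low values were whole multiples of 1 read for 45.3% to 59.4% of genes (tolerance 0.02 reads), so no count test was run, and the depth given is inferred.

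Genes reaching 0.5 RPM in 1 library or more were fitted in limma 3.58.1 (R 4.3.3) on log2(RPM + 0.1) with 1 mean per group over all 15 libraries, empirical Bayes moderation with a trend, and Benjamini-Hochberg adjustment over 18553 genes. A call needed an adjusted p below 0.05 and an absolute log2 change of at least 1. Such changes understate folds of low genes, since 0.1 RPM was 3.38 to 4.86 reads. Read ratios have exact 95% binomial intervals. Coding sequences were aligned with mafft 7.526. The fit was tested on simulated data.

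Replicates came from 3 experiments, and within groups r was 0.993 to 0.997 with 0 identical pairs. Numbers were taken to pair libraries where the deviations of every same-numbered pair correlated above 0.1. E9 AoD and E9 AoV met this (r = 0.452, 0.347 and 0.19). No other groups did, although all same-numbered pairs between E10 groups were positive (r = 0.0416 to 0.339).

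The members and lists were chosen with earlier results of these data known. Besides the members, the text names the forkhead genes with the 5 widest called interactions and those clustered with a member, called hedgehog genes and ligands, from each other list up to 4 of the most abundant genes and up to 4 with the widest interaction, and the 5 most and 2 least alike genes per member. Neighbours were added after values were seen. Disp1 and G6pc were not found under those names. A few genes that these rules name are not reported here.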

Additional observations from a re-analysis of the deposited data

Results flagged for a closer look

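The 3 members Foxa1, Foxf1a and Foxf2 differed in opposite directions with stage in the ventral and the dorsal tissue, every E10 AoV library being below every E9 AoV library and every E10 AoD library above every E9 AoD library. The difference between the tissues was -7.40 for Foxa1, -7.14 for Foxf2 and -4.83 for Foxf1a on the log2 scale (AoV stage difference minus AoD stage difference). These differences were not tested, because the genes had been picked for this pattern.

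The stage effect also differed between AoV and AoD by limma's interaction term in genes around the members. Of the hedgehog list these were Shh at -6.15, Hhip at -4.09, Ihh at -3.70, Ptch1 at -2.38 and Gli1 at -1.52, with Gas1 at 1.93, Boc at 1.26 and Cdon at 1.13 in the other direction. Among further forkhead genes the term was -3.52 for Foxq1, -2.07 for Foxe1 and -1.53 for Foxl1, and it was 1.93 for Foxo6, 1.89 for Foxb1, 1.72 for Foxr1 and 1.18 for Foxc2. The Foxb1 value goes with a dorsal level of 21.1 ± 8.02 RPM at E9.5 and 0.45 ± 0.205 RPM at E10.5, and Foxo6 was at 21.1 ± 0.666 RPM in E10 AoV and at 2.68 RPM or less in the other aortic group means.

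Of genes within 100 kb of a member, 1700018A04Rik (-5.99) and Gm11377 (-4.04) lie near Foxf2, 1110050K14Rik (-5.09) near Foxf1a, Ttc6 (-4.93) near Foxa1 and 9030622O22Rik (-2.74) near Foxa2. Gm11377, Ihh, Foxe1 and Foxr1 passed the filter through a single group each, so nothing is read from their calls. Groups of 3 libraries were too small for a test of single outlying samples.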

How the results depend on the processing

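Of 740 values of the members under other settings, 721 kept their direction and side of the threshold or, where untested, moved by less than the replicate spread. Many log2 differences could not move. Leaving out a library of a group not compared, blocking on replicate, dropping the filter or fitting only the groups compared leaves them unchanged. The count of 721 is therefore no measure of robustness. The pseudocount mattered most. With 1 RPM in place of 0.1 RPM the numbers of genes called were 1104 and 1281 for stage in AoV and AoD (2046 and 2337 before), 1196 and 1020 for position at E9.5 and E10.5 (2187 and 1874), 735 and 1143 for E10 AoV and E10 AoD against E10 UGR (1404 and 2100) and 1174 for the interaction (2044). The members' log2 differences then shrank to -5.01 (Foxa1), -3.33 (Foxa2), -2.16 (Foxa3) and -3.36 (Foxf2) for stage in AoV, to -0.08 for Foxa3 in AoD, to -2.89 (Foxa1), -2.02 (Foxa2) and -4.14 (Foxf2) for position at E10.5, to 2.20 for Foxa3 at E9.5, and to -6.10 (Foxa1), -1.99 (Foxa2), -2.08 (Foxa3) and -6.73 (Foxf2) for the interaction. A larger pseudocount pulls low values together by construction. Foxa1 in E10 AoV against E10 UGR was 0.38 (limma adjusted p = 0.0525) under it, and the calls of Foxf1a and Foxf2 there stood at 3.22 and 1.43. Against E10 UGR, E10 AoD then exceeded the ridges by 2.16 for Foxa2, 3.26 for Foxa1, 4.07 for Foxf1a and 5.57 for Foxf2.

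Leaving out 1 library at a time gave 2029 to 2094 and 2218 to 2469 calls for stage in AoV and AoD, 2024 to 2340 and 1826 to 1894 for position at E9.5 and E10.5, 1360 to 1420 and 2057 to 2138 against the ridges, and 1905 to 2083 for the interaction. Foxa1 in E10 AoV against E10 UGR ranged from 0.89 to 1.22 and was not called without E10 AoV replicate 2 or E10 UGR replicate 3. For Foxa2, without E10 AoD replicate 1, the AoD stage difference was -1.91 (range -1.91 to -1.38) and the interaction -3.45 (range -3.98 to -3.45). Signs turned in uncalled values: Foxa2 position at E9.5 was 0.06 without E9 AoV replicate 3 (range -0.10 to 0.06), and Foxa3 in E10 AoV against E10 UGR, with a range of -0.19 to 0.25, was -0.19 without E10 AoV replicate 2 and -0.03 without E10 UGR replicate 1. Quantile normalization moved the E9.5 position calls from 70.6% to 59.4% higher (1200 higher and 820 lower).

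With the replicate number as a block, 2045, 2339, 2188, 1876, 1408, 2102 and 2067 genes were called in the same order of comparisons, and 2186 with the block on the E9 libraries only, an alternative added after seeing the data. The block changed no call of a member. Over the 30 pairs of same-numbered libraries the median r of deviations was 0.0638, and 11 exceeded 0.1. Of 53 other genes, 6 lost the interaction call somewhere: 9030622O22Rik, Foxe1, Foxr1, Myh11 and Nkx2-2 with a pseudocount of 1 RPM, and Cdon without E9 AoV replicate 1. Depth limits Foxa2 and Foxa3 in E10 AoV and E10 UGR, where each library held 8 reads or fewer, and Foxa3 in AoD.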

Other observations

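A few forkhead genes that are not members moved with stage alike in both aortic tissues, and were looked up after values were seen. Foxs1, a gene of vessel-associated and neural crest derived cells, rose by 3.22 in AoV (limma adjusted p = 6.69e-07) and by 3.38 in AoD (limma adjusted p = 2.59e-07), with an interaction of -0.16. Foxp2 rose by 1.70 in AoV (limma adjusted p = 2.69e-08) and by 1.95 in AoD (limma adjusted p = 5.37e-09), and exceeded E10 UGR by 1.65 in E10 AoV and by 1.69 in E10 AoD. Foxd1 rose by 1.08 in AoV and by 1.80 in AoD and was lower in AoV than in AoD at both stages (differences of -2.07 at E9.5 and -2.79 at E10.5). Foxd3, a neural crest factor, was also lower in AoV (differences of -2.43 at E9.5 and -2.99 at E10.5), and its stage differences of 0.31 and 0.87 were not called.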
